A study of Mus musculus with 2 samples.

Results

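Neutrophils store antimicrobial proteins in granules that form in sequence as the cell matures. Primary granules form at the promyelocyte stage and hold a peroxidase and serine proteases. Specific and gelatinase granules form later, from the myelocyte stage onward, and hold iron-binding proteins, cathelicidins and metalloproteinases. The messenger RNA of each granule class is made mainly while that class forms, so primary and later granule genes mark different stages of one lineage. The fetal liver is the main site where blood cells are made in the mouse embryo in the days before birth.

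The 10 granule genes described here were chosen by name. The 4 primary granule genes were Mpo, Elane, Prtn3 and Ctsg, and the 6 later granule genes were Ltf, Camp, Ngp, Lcn2, Chil3 and Mmp8. All 10 were found by Ensembl identifier among the 43346 genes of both tables. They were measured by total RNA sequencing of whole liver from B6NCrl mouse embryos of both sexes at embryonic day 15.5. Replicate 2 held pooled livers of 62 embryos and replicate 1 those of 78, and the labels call them biological replicates of a single group. Each library used RNA longer than 200 nt, 10 ng of input and added spike-in RNAs. With no treatment, mutation or control in the labels, primary were compared with later granule genes, and replicate 2 with replicate 1.

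Depth was 44200838 expected counts in replicate 2 and 34039426 in replicate 1, with spike-ins left out. A count of 0 allowed up to 3 counts, or 0.0679 CPM in replicate 2 and 0.0881 CPM in replicate 1. The tissue label was checked by marker lists. The 6 hepatocyte genes summed to 23868 TPM in replicate 2 and 28778 in replicate 1. Erythroid genes, also 6, summed to 390126 TPM in replicate 2 and 381736 in replicate 1. TPM, or a transcript abundance, is corrected for transcript length and was rescaled without spike-ins. In whole tissue, fewer cells of a type and less RNA per cell cannot be told apart.

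The promoters of 4 members are shown, since they differ in the words that 3 myeloid transcription factors are known to read. Mpo, Elane and Prtn3 represent the primary genes and Ltf the later ones. Each line gives the 250 bases before the RefSeq start of the gene (GRCm38.p6), 5′ to 3′ on the gene's strand. Capitals mark matches on either strand to GAGGAAG, a core word of PU.1 sites, to AACGG, a core word of MYB sites, and to GCAAT, a core word of C/EBP sites. Mpo lies at chr11:87793534-87793783, Elane at chr10:79886062-79886311, Prtn3 at chr10:79879417-79879666 and Ltf at chr9:111019042-111019291, all on the plus strand.
Mpo: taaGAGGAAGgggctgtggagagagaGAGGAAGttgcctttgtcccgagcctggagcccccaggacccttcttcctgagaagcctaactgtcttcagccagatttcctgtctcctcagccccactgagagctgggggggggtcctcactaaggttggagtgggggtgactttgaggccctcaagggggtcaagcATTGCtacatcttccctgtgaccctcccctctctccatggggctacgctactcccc
Elane: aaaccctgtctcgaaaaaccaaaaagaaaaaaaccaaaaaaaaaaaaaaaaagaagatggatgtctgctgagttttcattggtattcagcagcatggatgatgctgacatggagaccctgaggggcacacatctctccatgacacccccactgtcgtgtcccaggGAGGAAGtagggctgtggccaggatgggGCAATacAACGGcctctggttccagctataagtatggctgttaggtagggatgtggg
Prtn3: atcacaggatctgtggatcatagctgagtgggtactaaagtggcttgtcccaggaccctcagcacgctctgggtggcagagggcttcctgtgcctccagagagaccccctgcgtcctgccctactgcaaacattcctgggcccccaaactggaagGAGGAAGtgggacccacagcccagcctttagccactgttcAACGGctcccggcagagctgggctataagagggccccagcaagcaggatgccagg
Ltf: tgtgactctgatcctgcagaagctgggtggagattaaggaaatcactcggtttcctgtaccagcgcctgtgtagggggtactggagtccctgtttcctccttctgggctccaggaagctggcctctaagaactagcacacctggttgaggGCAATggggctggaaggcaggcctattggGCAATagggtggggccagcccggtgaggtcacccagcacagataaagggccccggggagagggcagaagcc

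All 4 primary promoters held GAGGAAG, as did 2 of the 6 later promoters, those of Lcn2 and Mmp8. Of 27025 promoters of the same length, 10.4% held it. In Elane it stood 85 to 79 bases before the start, and in Prtn3 95 to 89 bases before it. AACGG followed at 50 to 46 bases in Elane and at 55 to 51 bases in Prtn3, and no other member held it, against 14.8% of all promoters. GCAAT was found in 2 primary promoters, Mpo and Elane, and in 5 later ones, Ltf, Camp, Ngp, Lcn2 and Mmp8, against 23.3% of all promoters. Ltf held it at both 100 to 96 and 71 to 67 bases before the start. Chil3 held none of the 3 words. The RefSeq starts differ from the GENCODE starts of the coordinates given below. In Mpo, Elane, Camp and Lcn2, GCAAT lies inside the GENCODE gene, as does AACGG in Elane. The whole Prtn3 window lies inside its GENCODE gene. GAGGAAG in Lcn2 lies past the start of its main transcript form, and AACGG in Prtn3 lies across it. The main Mpo form starts at chr11:87794209, beyond its window. The words were chosen after these sequences had been read, so the matches are a description of the letters and not of binding.

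In both libraries all 10 granule genes reached 1 TPM, as did 28.4% of the 43346 genes. Their mean levels ran from 482 ± 62.7 TPM for Ngp to 12.0 ± 2.71 TPM for Mmp8 (SD, n = 2), which placed them between rank 172 and rank 5782 of all genes. Together the 10 genes took 0.190% of all TPM in replicate 2 and 0.202% in replicate 1. Every member had at least 675 expected counts in each library, and the intervals given below cover counting error only.

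Among the primary genes, Mpo was highest. Mpo (ENSMUSG00000009350, chr11:87793581-87804413, plus strand, GRCm38) encodes myeloperoxidase, which makes hypochlorous acid from hydrogen peroxide and chloride. It stood at 441 TPM in replicate 2 and 417 in replicate 1. The expected counts behind these were 35814 in replicate 2 and 24582 in replicate 1. Its ratio of counts, scaled by library totals, was 1.12 for replicate 2 over replicate 1, with an exact 95% counting interval of 1.10 to 1.14. Replicate 2 was the higher library by a small margin.

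The other 3 primary members encode serine proteases of one family. Elane (ENSMUSG00000020125, chr10:79886247-79888215, plus strand), the gene of neutrophil elastase, stood at 223 TPM in replicate 2 and 207 in replicate 1. Prtn3 (ENSMUSG00000057729, chr10:79874476-79883174, plus strand), the gene of proteinase 3, stood at 122 TPM in replicate 2 and 104 in replicate 1. Ctsg (ENSMUSG00000040314, chr14:56099881-56102574, minus strand), the gene of cathepsin G, stood at 40.6 TPM in replicate 2 and 36.3 in replicate 1. Each was higher in replicate 2, and the levels of the 3 proteases did not overlap one another. The scaled count ratio was 1.12 (interval 1.08 to 1.16) for Elane. It was 1.22 (1.16 to 1.28) for Prtn3, and 1.16 (1.07 to 1.26) for Ctsg.

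The later genes ranged more widely. Ngp (ENSMUSG00000032484, chr9:110419747-110423012, plus strand) encodes neutrophilic granule protein, a cathelicidin relative known from the mouse. It stood at 438 TPM in replicate 2 and 526 in replicate 1, and its scaled count ratio was 0.863 (0.846 to 0.881). Camp (ENSMUSG00000038357, chr9:109847379-109849617, minus strand) encodes the cathelicidin antimicrobial peptide precursor. It stood at 341 TPM in replicate 2 and 363 in replicate 1. Camp was the later gene that differed least, with a scaled count ratio of 0.974 and an interval of 0.941 to 1.009 that includes 1.

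Lcn2 and Ltf act on iron. Lcn2 (ENSMUSG00000026822, chr2:32384633-32388252, minus strand) encodes lipocalin 2, which binds bacterial siderophores, and stood at 171 TPM in replicate 2 and 198 in replicate 1. Ltf (ENSMUSG00000032496, chr9:111019271-111042767, plus strand) encodes lactoferrin, an iron-binding protein, and stood at 103 TPM in replicate 2 and 135 in replicate 1. Both were lower in replicate 2, with scaled count ratios of 0.898 (0.865 to 0.933) for Lcn2 and 0.795 (0.774 to 0.816) for Ltf.

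Chil3 and Mmp8 were the lowest members. Chil3 (ENSMUSG00000040809, chr3:106147554-106167564, minus strand) encodes a chitinase-like lectin also made by macrophages. It stood at 11.2 TPM in replicate 2 and 22.9 in replicate 1, from 675 expected counts in replicate 2 and 1003 in replicate 1. The scaled count ratio was 0.518 (0.469 to 0.572), the farthest from 1 of any member. Mmp8 (ENSMUSG00000005800, chr9:7558456-7568485, plus strand) encodes neutrophil collagenase and stood at 10.1 TPM in replicate 2 and 13.9 in replicate 1, with a ratio of 0.753 (0.689 to 0.822). The libraries were apart for both genes beyond counting error.

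**Figure D1:**
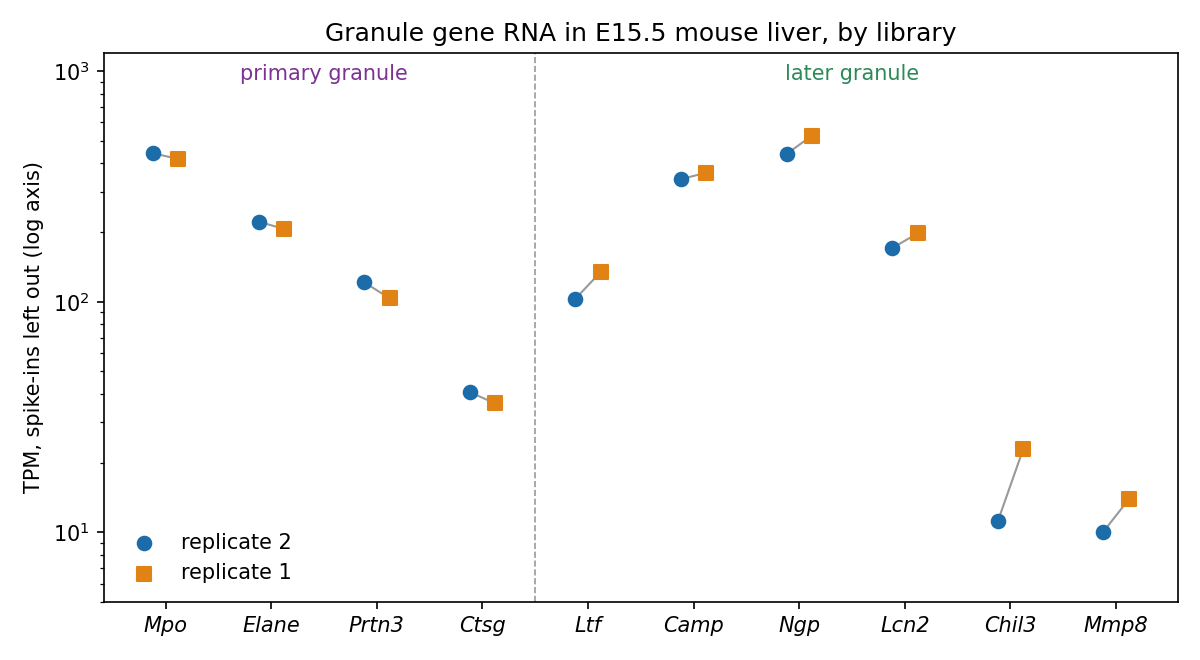
TPM without spike-ins (log axis) of each granule gene, with replicate 2 as circles and replicate 1 as squares. Every primary gene was higher in replicate 2 and every later gene lower, and the longest step on the log axis was that of Chil3, at 11.2 TPM in replicate 2 and 22.9 in replicate 1.

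By mean level the order was Ngp, Mpo, Camp, Elane, Lcn2, Ltf, Prtn3, Ctsg, Chil3 and Mmp8. Ngp and Mpo could not be placed, since Mpo was the higher in replicate 2 and Ngp in replicate 1. The same held for Ltf and Prtn3, where Prtn3 was higher in replicate 2. The ranges of Chil3 and Mmp8 overlapped, although Chil3 was higher in each library. The other 6 neighbouring pairs did not overlap. Neither class stood above the other throughout the order.

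The question put by the granule classes is how much primary RNA there was per later RNA. The primary genes summed to 826 TPM in replicate 2 and 764 in replicate 1, or 795 ± 43.5 TPM (SD, n = 2). The later genes summed to 1074 TPM in replicate 2 and 1259 in replicate 1, or 1166 ± 131 TPM. The primary to later ratio was 0.769 in replicate 2 and 0.607 in replicate 1, a mean log2 ratio of −0.55 ± 0.24.

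That order of the classes rested on single genes and on the summary. Without Ngp the mean log2 ratio became 0.22, and without Camp −0.0293. By gene, with 4 primary against 6 later members, the median of log2 TPM gave 0.0761 and the mean of log2(TPM + 1) gave 0.56. Expected counts, which are not corrected for length, gave 49210 for the primary and 45627 for the later genes in replicate 2, against 33542 and 41187 in replicate 1. The classes were not tested, since the smallest exact two-sided p that 2 libraries allow is 0.5.

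**Figure D2:**
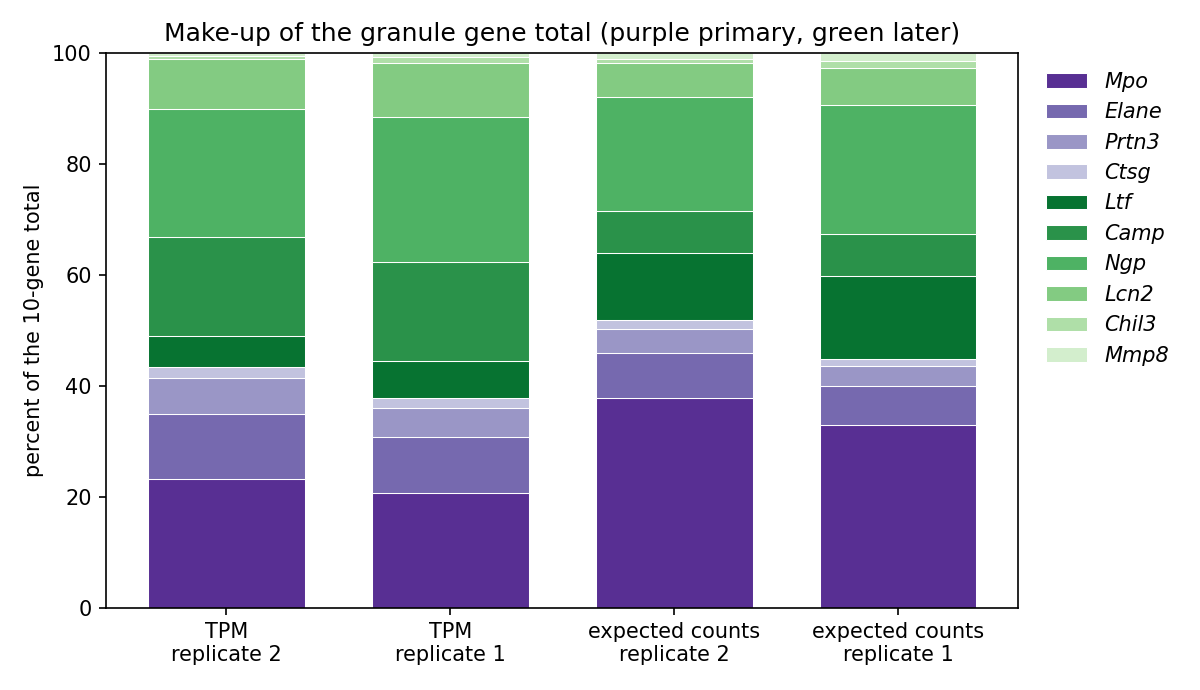
Percent of the summed TPM (left pair of bars) and of the summed expected counts (right pair) of the 10 genes that each gene took, replicate 2 left of replicate 1 in each pair. Of TPM, Mpo and Ngp took the widest bands, 23.2% and 23.0% in replicate 2 and 20.6% and 26.02% in replicate 1.

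Between the libraries the classes went opposite ways. All 4 primary genes were higher in replicate 2, as were 39.2% of the 8781 genes at 5 TPM or more in either library. All 6 later genes were lower in replicate 2, as were 60.8% of those genes. The median log2 ratio of TPM + 1, replicate 2 over replicate 1, was 0.13 for the primary genes, −0.32 for the later genes and −0.04 for all genes tested, whose quartiles were −0.15 and 0.07. With 1 library on each side there is no replicate check of these differences and no p-value.

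The counting intervals lay above 1 for 4 of 4 primary genes, against 25.2% of all genes tested. They lay below 1 for 5 of 6 later genes, all but Camp, against 24.4% of all genes tested. No member differed by more than 2-fold, as did 0.672% of genes. Chil3 came nearest, at a fold of 0.509 on the TPM + 1 scale, and passed 2-fold with a pseudocount of 0.1. In each of the 24 primary and later gene pairs the primary to later ratio was higher in replicate 2, by a factor of 1.13 for Mpo against Camp up to 2.41 for Prtn3 against Chil3. That direction follows from all 4 primary genes being higher and all 6 later genes lower, so it adds nothing to those counts. These pairs share the same libraries and genes and are not independent. The summed ratio was higher in replicate 2 by a factor of 1.27.

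**Figure D3:**
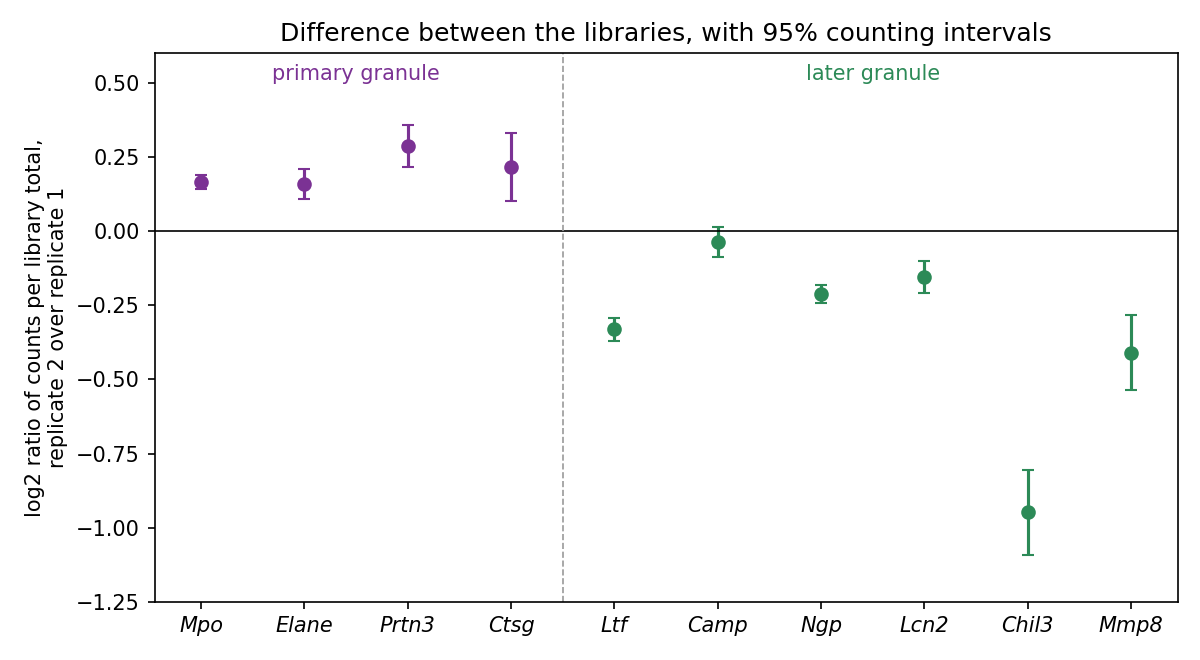
Log2 ratio of expected counts per library total, replicate 2 over replicate 1, with exact 95% counting intervals as bars. All 4 primary genes lie above 0, and 5 of the 6 later genes lie below it with their whole interval, while the interval of Camp crosses it.

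Scaling by spike-in totals moved every gene up by 0.15 on the log2 scale relative to library totals. Under it Camp turned to 0.11, and the primary genes were at 0.30 to 0.43. So 5 of 6 later genes were below 0, among them Lcn2 at −0.0089, close to no difference, and Ngp at −0.066. The gap between the class medians was 0.45 on the TPM + 1 scale. A scaling factor moves every gene by the same amount, so the scalings could not change this gap. It was 0.49 with the trend in GC content removed and 0.43 with the trend in length removed. The leading transcripts of the primary genes had a GC content of 51.5% to 60.7% and those of the later genes 43.4% to 54.2%, against a median of 50.7% over the genes tested that had a sequence. With the trend in GC content removed, the medians were 0.21 for the primary and −0.28 for the later genes.

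Further genes of the same granules were read from lists, which were chosen with earlier results of these data known. Their counts of higher and lower genes cover those at 1 TPM or more in both libraries, a limit that 28.4% of all genes reached. The genes tested, set beside them, are those at 5 TPM or more in either library. Of the genes tested, 39.2% were higher in replicate 2 and 60.8% were lower. Among 8 other primary granule genes, 7 reached 1 TPM in both libraries, and of these 6 were higher and 1 lower in replicate 2, with a median log2 ratio of 0.14. Srgn, the gene of the granule proteoglycan serglycin, had 73.6 TPM in replicate 2 and 53.6 in replicate 1. Ms4a3, a marker of granulocyte and monocyte progenitors, had 36.1 TPM in replicate 2 and 28.7 in replicate 1. Lyz2, a lysozyme gene that macrophages also use, was the exception at 629 TPM in replicate 2 and 697 in replicate 1. Whether the RNA of the other genes of this list came from neutrophils was not tested either. Bpi had no counts in either library.

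Among 11 other specific granule genes, 2 were higher and 9 lower in replicate 2, with a median of −0.18. None of the 11 had a counting interval above 1 and 5 had one below it, against 25.2% and 24.4% of all genes tested. Cyba, a subunit of the phagocyte oxidase, was level at 176 TPM in each. Hp, the haptoglobin gene, which hepatocytes also use and which the acute phase list below also holds, had 116 TPM in replicate 2 and 174 in replicate 1. Cd177, a neutrophil surface glycoprotein, had 9.31 TPM in replicate 2 and 12.6 in replicate 1.

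Of 10 gelatinase granule and secretory vesicle genes, 8 reached 1 TPM in both libraries, with 3 higher and 5 lower in replicate 2 and a median of −0.10. Mmp9, the gelatinase itself, had 5.49 TPM in replicate 2 and 9.44 in replicate 1. Of 13 genes of late neutrophils, 3 were higher and 10 lower, with a median of −0.20. The summed TPM of that list went the other way, at 4359 in replicate 2 and 3831 in replicate 1. S100a8, a calprotectin subunit, made most of that sum, with 2805 TPM in replicate 2 and 2294 in replicate 1. Ly6g, which marks mature mouse neutrophils, had 1.94 TPM in replicate 2, from 68 expected counts, and 3.31 in replicate 1, from 87.

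**Figure D4:**
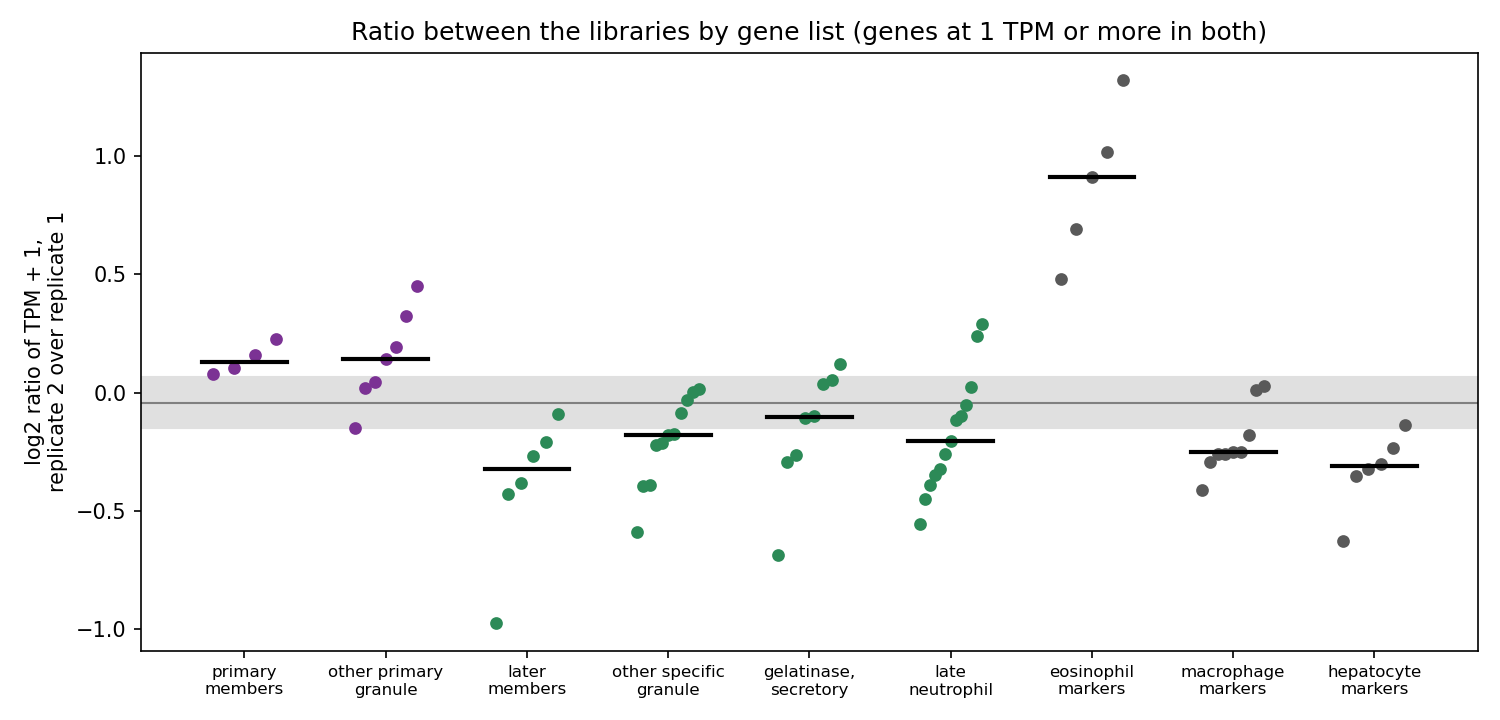
Log2 ratio of TPM + 1, replicate 2 over replicate 1, for genes that reached 1 TPM in both libraries, by list, with each point 1 gene and each bar the list median. The grey line and band mark the median (−0.04) and quartiles of all genes tested, those at 5 TPM or more in either library. The 2 primary lists have medians of 0.13 and 0.14, and the eosinophil markers 0.91.

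The primary proteases are made as inactive precursors, and cathepsin C, encoded by Ctsc, activates them. Ctsc had 64.5 TPM in replicate 2 and 55.6 in replicate 1. Serpinb1a, an intracellular inhibitor of neutrophil proteases, had 35.2 TPM in replicate 2 and 29.4 in replicate 1. These 2 genes were picked for their roles with their values known. Of 15 genes of protease activation and inhibition, 14 reached 1 TPM in both libraries, as did 28.4% of all genes. Of the 14, 3 were higher and 11 lower in replicate 2, against 39.2% and 60.8% of all genes tested, with a median of −0.15. Among the lower were Serpina1a to Serpina1e and A2m, at log2 ratios of −0.30 to −0.57. Serpina1a also stands in the hepatocyte list below. Serpina1b, a hepatocyte gene of alpha-1-antitrypsin, had 879 TPM in replicate 2 and 1081 in replicate 1.

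Of 12 regulators of granule genes, 11 reached 1 TPM in both libraries, as did 28.4% of all genes. Of the 11, 2 were higher and 9 lower in replicate 2, against 39.2% and 60.8% of all genes tested. Their median of −0.11 lay within the quartiles of all genes tested, −0.15 and 0.07. Spi1, the gene of PU.1, led at 24.0 TPM in replicate 2 and 24.9 in replicate 1. Cebpe, which mice need to form specific granules, had 9.85 TPM in replicate 2 and 11.7 in replicate 1. Cebpa, which acts earlier in the lineage and also in hepatocytes, had 9.48 TPM in replicate 2 and 11.9 in replicate 1. Myb had 8.66 TPM in replicate 2 and 8.13 in replicate 1, and Gfi1, a repressor needed for neutrophil maturation, had 1.45 in replicate 2 and 1.91 in replicate 1.

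Markers of other cell types also differed between the libraries. All 6 hepatocyte genes were lower in replicate 2, with a median of −0.31, as were 60.8% of all genes tested. Of 9 macrophage genes 7 were lower, with sums of 381 TPM in replicate 2 and 446 in replicate 1. The 3 acute phase genes at 1 TPM or more, Hp among them, were lower too, and Saa2 had no counts. Of 7 eosinophil genes, 5 reached 1 TPM in both libraries and all 5 were higher in replicate 2, with sums over the list of 108 TPM in replicate 2 and 51.4 in replicate 1. Prg2, the gene of eosinophil major basic protein, led at 63.3 TPM in replicate 2 and 24.7 in replicate 1. Of the receptor genes of the list, Ccr3 had 23 expected counts in replicate 2 and 15 in replicate 1. Il5ra had 3 in replicate 2 and 2 in replicate 1, within the limit that a count of 0 allows. Of 5 promyelocyte and monocyte genes, 2 were higher, Ms4a3 among them, and 3 lower, against 39.2% and 60.8% of all genes tested. Fcnb, the highest of the 5, was lower, at 59.1 TPM in replicate 2 and 65.6 in replicate 1. The 3 mast cell and basophil genes at 1 TPM or more were higher, with a median of 0.09. The part of these cell types in the granule gene differences was not tested.

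Transcript forms were read for members with several. Elane, Ctsg, Ltf, Camp, Ngp and Mmp8 each have 1 transcript in the tables. A form of 915 nt held 98.4% ± 0.103 of Lcn2 TPM, and a form of 1539 nt held 98.7% ± 1.82 of Chil3 TPM (SD, n = 2). For Mpo, a coding form of 2409 nt held 72.4% ± 1.61 of TPM and 87.4% of expected counts. A form of 640 nt, also annotated as coding, held 22.1% ± 1.74 of Mpo TPM and 6.25% of its counts.

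Among Mpo, Prtn3, Lcn2 and Chil3, the members with an annotated retained intron form, Prtn3 had the most such signal. The other members have no such form annotated, so their share could only be 0. Its coding form of 1025 nt held 58.3% ± 0.944 of TPM and 66.0% of expected counts. A retained intron form of 786 nt held 38.1% ± 1.46 of TPM and 32.0% of counts. Retained intron forms of Prtn3 made up 40.8% of its TPM in replicate 2 and 42.3% in replicate 1. Of 8364 protein-coding genes at 5 TPM or more in either library, 269, or 3.22%, had a share as high. Genes among them with no such form annotated were counted at 0, so this percentage depends on the annotation. Such forms held 0.499% of Mpo TPM in replicate 2 and 0.708% in replicate 1. For Lcn2 they held 1.02% in replicate 2 and 0.895% in replicate 1.

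Some members could share reads with neighbours or relatives. Prtn3 and Elane lie 3072 nt apart, and their coding sequences share 65.9% of aligned bases. Cfd, the serine protease gene 2637 nt beyond Elane, had no counts in either library. Lpo, the peroxidase gene 2014 nt from Mpo, had 0.0310 TPM in replicate 2 and none in replicate 1. The antisense gene Gm11505 overlaps Mpo, at 2.66 TPM in replicate 2 and 2.50 in replicate 1, and reads of the 2 cannot be told apart where strand was not used. The same holds for Plppr3, which overlaps Prtn3 by 159 nt on the other strand, at 5.37 TPM in replicate 2 and 5.66 in replicate 1. Chil3 and Chil4 share 95.4% of aligned coding bases, and Chil4 had no counts in either library. The deposited posterior SD of the Chil3 count was 0.25 in replicate 2 and 0.26 in replicate 1.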

How the data were processed

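Total RNA of E15.5 liver was sequenced in 2 libraries. Per the file headers and companion descriptions, the authors deposited expected counts and TPM per gene and per transcript on mm10 with annotation M4, spike-ins included. Posterior mean TPM, posterior SD and interval bounds were also deposited. Not given in the sources used here are the aligner, the quantifier, their versions and the strand setting, though the header names match RSEM output. Of the entries, 97 were spike-ins and 26248 had numeric identifiers that held 5.53e-05% of counts in replicate 2 and 4.30e-05% in replicate 1. They were left out, and TPM was rescaled without spike-ins.

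Symbols and coordinates came from GENCODE M21 (GRCm38), which named 42462 of 43346 genes. Promoters came from RefSeq, where all 10 members matched. Members and the 16 gene lists (138 symbols, all measured) were chosen with earlier results of these data known, and some genes stand in several lists. Genes to name were the members, the 3 highest, the lowest and the most different gene of each list, neighbours and paralogs, and of these only some are printed. Ctsc, Serpinb1a, Cebpe, Gfi1, Myb and Ccr3 fall outside that rule and were named for their roles after their values were seen.

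Replicate 2 was set against replicate 1 as the log2 ratio of TPM + 1, for genes at 5 TPM or more in either library. On this scale low genes are understated. The ratio of counts per library total has an exact 95% Clopper-Pearson interval, which covers counting error only, since PCR reads without molecular identifiers are not independent molecules. With a single group of 2 libraries, edgeR's quasi-likelihood test could not be fitted and no p-value is given. Pseudocounts, thresholds, scalings (edgeR 4.0.16, DESeq2 1.42.0, on expected counts rounded to whole numbers, and spike-ins), posterior mean TPM and left-out members were the alternatives. Removal of trends with GC content or length (medians in 40 bins) and protein-coding transcripts alone were added after seeing the data. The interval and fold rules were tested on simulated data. Tools were R 4.3.3 and Python 3.11.15 with pandas 2.3.3, NumPy 2.4.6, SciPy 1.17.1, Biopython 1.88 and matplotlib 3.10.9.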

Additional observations from a re-analysis of the deposited data

How the results depend on the processing

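The log2 ratio of summed primary to later TPM, −0.55, depended on the unit, the summary and the members. It was −0.0936 with expected counts, and turned positive by the median of log2 TPM (0.0761), by the mean of log2(TPM + 1) (0.56) and without Ngp (0.22). It was −1.67 without Mpo, −1.01 without Elane, −0.0293 without Camp, −0.30 without Lcn2 and −0.28 without Lcn2 and Chil3. Each library alone gave the same sign, as did posterior mean TPM, annotated lengths, protein-coding transcripts alone and leaving out any of the other members. The number of members past 2-fold was 1 with a pseudocount of 0.1 and 1 at a 1.5-fold threshold, in place of 0. With spike-in totals the Camp log2 ratio between libraries turned to 0.11. No other member changed direction under any scaling or trend tried. Some values came close to no difference, with Lcn2 at −0.0089 by spike-in totals and Camp at −0.0023 with the GC trend removed. The causes were not tested. With 2 libraries and 1 group, differences between pools of embryos and between library preparations cannot be told apart.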

Other observations

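Relatives of the granule proteins were read from a further list. Of 31 genes listed as relatives of members, 9 reached 1 TPM in both libraries, as did 28.4% of all genes, and 8 had no counts in either. Trf, the transferrin gene and a relative of Ltf, was the highest, at 10337 TPM in replicate 2 and 15233 in replicate 1. Coding sequences of Ltf and Trf share 65.4% of aligned bases. Rbp4, a retinol carrier of the lipocalin family like Lcn2, had 1678 TPM in replicate 2 and 1759 in replicate 1. Epx, the eosinophil peroxidase gene, differed most among the paralogs, at 3.31 TPM in replicate 2 and 1.13 in replicate 1. Its count ratio was above 1 by the counting interval of 2.41 to 3.88, and its coding sequence shares 71.5% of aligned bases with that of Mpo.

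Receptors and partners of granule proteins were also read. Of 8 such genes, 6 reached 1 TPM in both libraries, as did 28.4% of all genes. Of the 6, 3 were higher and 3 lower in replicate 2, against 39.2% and 60.8% of all genes tested. Tfrc, the transferrin receptor gene, led at 279 TPM in replicate 2 and 266 in replicate 1. Lrp1, an endocytic receptor that binds lactoferrin, had 21.2 TPM in replicate 2 and 28.6 in replicate 1. Itln1, an intelectin gene, had no counts in either library.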
